A study of Homo sapiens with 6 samples.

Results

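Small nucleolar RNAs and small Cajal body RNAs were measured in PLC/PRF/5 cells with and without knockdown of MTR4, and 125 of the 766 such genes in the count files had enough reads to be members of the set. A gene was a member when its GENCODE symbol began with SNORD, SNORA or SCARNA followed by a digit and its reads summed to at least 10 over the 6 libraries. The summed counts chose the members, and the difference between the groups was not used. The members were 56 SNORD, 60 SNORA and 9 SCARNA genes with 109 distinct symbols among 60675 counted genes.

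PLC/PRF/5 is a human hepatocellular carcinoma line, and total RNA from 3 control and 3 MTR4 KD samples of that line was sequenced. The study describes an shRNA against MTR4 on a doxycycline-inducible lentiviral vector, with RNA taken before and after induction, while the labels call the control wild and name no construct, so whether the control cells carried it was not settled here. The labels name no clone and no separate cultures, so a p-value here covers the spread between these libraries, which may be technical. No library of induced cells with a scrambled shRNA was analysed here.

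Small nucleolar RNAs guide the chemical modification of ribosomal and spliceosomal RNA. Box C/D RNAs, named SNORD, direct ribose methylation by fibrillarin, and box H/ACA RNAs, named SNORA, direct pseudouridylation by dyskerin, while SCARNA genes encode guides that reside in Cajal bodies and act on spliceosomal RNAs. Most are cut from introns of host genes and trimmed from the 3′ side. MTR4, encoded by MTREX, is the helicase that feeds RNA into the nuclear exosome, a complex that trims and degrades such precursors.

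The targeted gene was lower in every MTR4 KD library. MTREX stood at 72.2, 87.4 and 74.4 CPM (the count of a gene scaled to the size of its library) in the controls and at 44.6, 48.8 and 44.1 in MTR4 KD. Its log2 fold change was -0.77 with an adjusted p of 0.00641 by edgeR's quasi-likelihood test over all tested genes. The counts on genes ranged from 60686786 to 72708682 per library. All 11 hepatocyte and hepatocellular carcinoma markers were counted, with summed levels of 16081 to 18294 CPM in controls and 15090 to 17118 in MTR4 KD, and the 7 counted markers of other cells summed to at most 9.60 CPM in any library. Of the 11 markers 4 were higher in MTR4 KD by the same test, beside 1.48% of all tested genes. Another 1 was lower, beside 2.12% of all tested genes. The log2 fold changes of the 11 ran from -0.26 to 0.88. The libraries fell into 2 sets that cross the conditions, called library batches here although the labels name no batch. The share of entries that aligned to more than 1 place was 37.2%, 37.5% and 34.7% in control 1, control 3 and MTR4 KD 3, and 14.8%, 16.7% and 18.2% in control 2, MTR4 KD 1 and MTR4 KD 2.

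The members were scarcely represented in these libraries. Together they held 8112 reads, 0.00211% of all counts on genes. The median member had 31 reads over the 6 libraries and the highest, SNORD17, had 626. Only 22 members reached 100 reads, and 73 had a read in all 6 libraries. Of the other genes of the symbol rule, 511 had no read and 130 had 1 to 9. The 3 members just inside the rule, SNORA3, SNORD116-17 and SNORD116-25, had 10 reads, and 7 genes just outside it had 9, namely SNORA4, SNORA7B, SNORD73, SNORA63, SNORD62, SNORA53 and SNORD9.

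The longer genes of the rule were members more often. Of 333 genes of up to 100 bases, 43 were members, a share of 12.9%. Of 411 genes of 101 to 200 bases, 70 were members (17%), and of 22 longer ones 12 were (54.5%). Length is that of the gene model, which can exceed the RNA, and the read total was not scaled to length. Several RNAs that are abundant in human cells were listed at 0 in every library, among them SNORD118, the U8 RNA of ribosomal RNA processing, SNORD13, SNORA74A, SCARNA9, SCARNA12 and SCARNA17. A count of 0 allows up to 3 reads per library, for counting error only. The labels give total RNA and a standard Illumina protocol, and how RNA was selected by size or by poly(A) tail is not given in the sources used here. The counts therefore cannot tell a mature small RNA from its host's precursor.

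The gene models of the members were searched for the boxes of their classes. A box C (TGATGA) followed by a box D (CTGA) on the annotated strand was present in 45 of 56 SNORD members (80.4%), in 55.4% of 334 other SNORD genes and in 0.9% of 7114 other small RNAs of 60 to 300 bases. An ACA with 3 bases after it at the 3′ end was present in 44 of 60 SNORA members (73.3%), in 58.1% of 339 other SNORA genes and in 1.5% of those other small RNAs. Both are matches of letters in the transcript models. The models are named by these same classes, so the shares describe the annotation and draw on no reads.

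The U3 RNAs, SNORD3A and SNORD3B-1, are shown first because they held many of the reads and differed between the library batches. U3 is needed for the early cleavages of the ribosomal RNA precursor and does not guide a modification. The sequences are GENCODE transcripts and the first 217 bases of each model are given, with box C (TGATGA) and box D (CTGA) in capitals. RefSeq places the 217-base genes on GRCh38.p14 at chr17:19188016-19188232 for SNORD3A and chr17:19061912-19062128 for SNORD3B-1, both on the plus strand in GENCODE, and neither lies in another gene of that strand.
SNORD3A: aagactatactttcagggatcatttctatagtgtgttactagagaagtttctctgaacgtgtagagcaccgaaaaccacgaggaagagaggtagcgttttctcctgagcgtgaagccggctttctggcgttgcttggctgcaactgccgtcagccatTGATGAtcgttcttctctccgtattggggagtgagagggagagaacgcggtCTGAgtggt
SNORD3B-1: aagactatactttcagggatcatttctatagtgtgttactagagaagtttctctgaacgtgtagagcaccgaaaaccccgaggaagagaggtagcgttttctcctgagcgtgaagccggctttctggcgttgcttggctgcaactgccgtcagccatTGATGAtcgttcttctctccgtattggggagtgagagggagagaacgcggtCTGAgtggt
These 217 bases differed at 1 position, an identity of 99.5%, and those of SNORD3B-2 were identical to those of SNORD3B-1. A read from this stretch can fit several copies, and the count of each copy depends on how such reads were placed. The gene models counted were longer than U3 itself, with 699 bases for SNORD3A and 758 for SNORD3B-1.

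SNORD3A had 28, 74 and 24 reads in controls 1 to 3 and 114, 120 and 17 in MTR4 KD 1 to 3. The 3 libraries with fewer non-unique reads were its 3 highest. SNORD3B-1 had 50, 196 and 39 reads in the controls and 119, 142 and 37 in MTR4 KD. Its order of libraries also followed the batch, and control and MTR4 KD overlapped. The third copy, SNORD3B-2, had 3, 15 and 2 reads against 14, 8 and 5 and was too low to be tested.

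Between the library batches, SNORD3A was 1.91 higher on the log2 scale (SE 0.34) in the libraries with fewer non-unique reads, with an adjusted p of 0.000776 in the edgeR fit with condition and batch. SNORD3B-1 was 1.83 higher (adjusted p = 1.97e-05 by edgeR). By condition alone, MTR4 KD differed from control by 1.06 for SNORD3A (adjusted p = 0.464 by edgeR) and by 0.16 for SNORD3B-1 (adjusted p = 0.920 by edgeR). With batch in the fit these values were 0.28 (adjusted p = 0.612 by edgeR) and -0.36 (adjusted p = 0.246 by edgeR). The summed level of the 3 SNORD3 members was 1.31, 3.94 and 1.08 CPM in the controls and 4.03, 4.04 and 0.962 CPM in MTR4 KD. The share of multiply aligned reads moved with these levels, and its part in them was not tested.

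The SNORA12 gene inside CWF19L1 on chromosome 10, for a box H/ACA RNA, was the other member that passed the test between batches. Another SNORA12 gene among the members was too low to be tested. The sequence below is the GENCODE transcript of the gene in CWF19L1, with the ACA near the 3′ end in capitals.
SNORA12: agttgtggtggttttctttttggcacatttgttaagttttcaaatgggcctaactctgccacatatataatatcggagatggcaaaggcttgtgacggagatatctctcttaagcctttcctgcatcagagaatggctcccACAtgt
It had 2, 36 and 0 reads in the controls and 36, 42 and 4 in MTR4 KD. It thus had 36 to 42 reads in the libraries with fewer non-unique reads and 0 to 4 in the others, and control and MTR4 KD overlapped. The batch difference was 3.90 on the log2 scale (adjusted p = 0.000283 by edgeR). No other gene of the rule or other small RNA matched it at 95% identity over 80% of its length. Its host CWF19L1 stood at 19.2 to 21.9 CPM over the libraries, with a batch difference of 0.09 (adjusted p = 0.303 by edgeR). Between MTR4 KD and control, SNORA12 differed by 1.21 by condition alone (adjusted p = 0.647 by edgeR) and by 0.56 with batch in the fit (adjusted p = 0.516 by edgeR). Without 1 library the first value ran from 0.66 to 4.54.

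In all, 3 of 34 tested members differed between the library batches, each higher with fewer non-unique reads, beside 31.5% of all tested genes in either direction and 15.3% in that direction. The share of members was below that background, but the shares were not matched for read depth. By condition alone, the median half-width of the 95% interval on the log2 scale was 0.96 for the members and 0.31 for all tested genes. For 5 tested members every library with fewer non-unique reads lay above every other, the 3 above and SNORD94 and SNORD64, beside 18.1% of all tested genes. None lay wholly below, beside 17.3% of all tested genes. When all genes with at least 10 reads were tested, SCARNA7, a guide for spliceosomal RNA, also passed (adjusted p = 0.0441 by edgeR), so that 4 of 125 members did, beside 22.1% of genes. SCARNA7 had 0, 11 and 0 reads in the controls and 6, 6 and 1 in MTR4 KD.

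**Figure D1:**
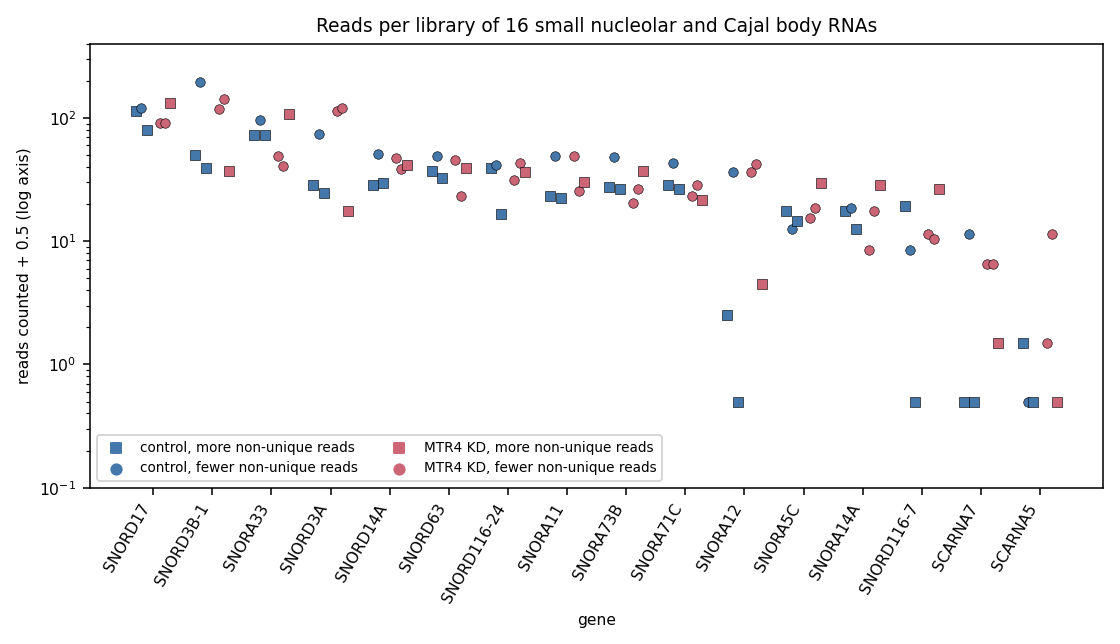
Reads counted per library, plus 0.5 and on a log axis, for the 16 named members. Each point is a library, colour gives the condition and shape the library batch. SNORA12 and both SNORD3 genes were high in the libraries with fewer non-unique reads, which include 1 control.

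The comparison of the study is MTR4 KD against control, and no member passed its test. Of 34 tested members 0 had an adjusted p under 0.05 in edgeR's quasi-likelihood fit, beside 3.6% of the 18075 genes tested (1.48% higher and 2.12% lower). With limma-voom none of the 34 was called, and with DESeq2 none of the 19 to which it gave an adjusted p. None had an unadjusted p under 0.05 either. The 34 comprised 21 SNORD, 12 SNORA and 1 SCARNA gene, and each had 60 reads or more in total. The median log2 fold change of the tested members was 0.20, beside 0.0062 over all tested genes, with 22 members above 0 and 12 below. In bulk RNA, a lower share of some cells and less RNA per cell cannot be told apart.

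The width of the intervals limits this comparison. The median half-width of the 95% interval was 0.96 on the log2 scale for the members and 0.31 for all tested genes. Every one of the 34 intervals included 0. A doubling lay inside the interval of 21 members and a halving inside that of 14. For those members a change of that size was not excluded.

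**Figure D2:**
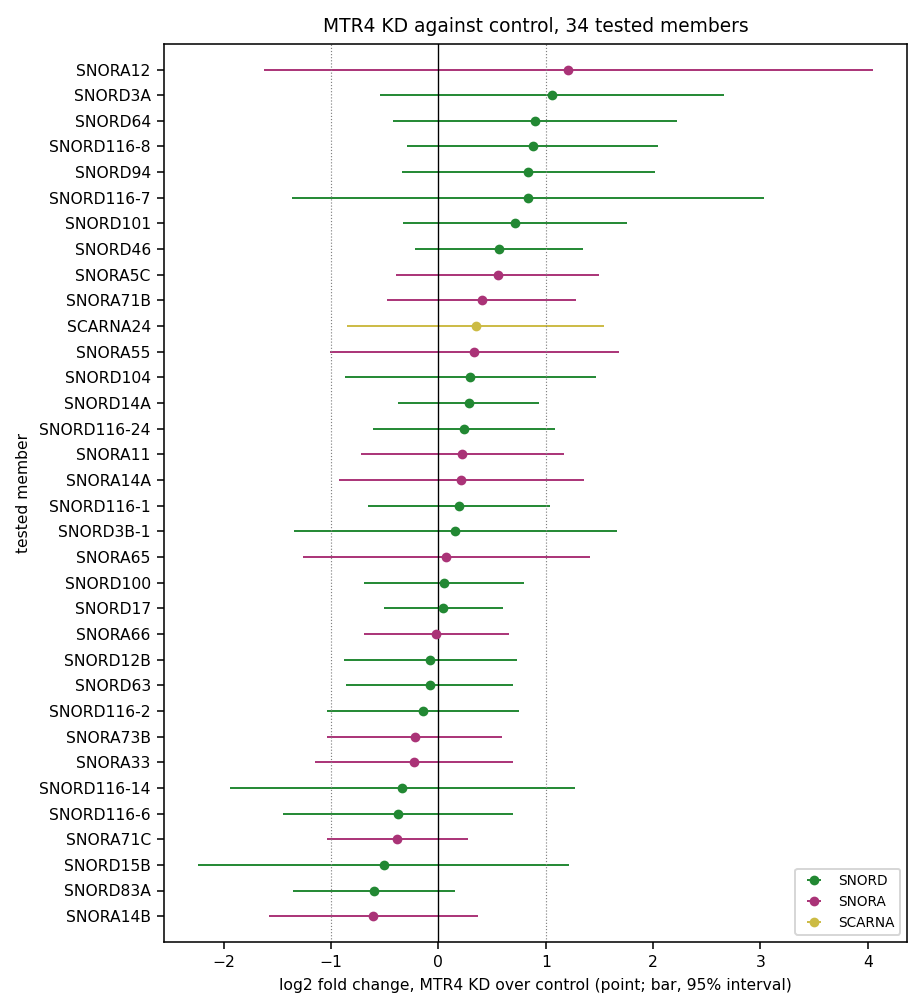
Log2 fold change of MTR4 KD over control with its 95% interval for each of the 34 tested members, ordered by value and coloured by class, with dotted lines at a doubling and a halving. All 34 intervals cross 0, and that of SNORD17, the member with most reads, is the narrowest at -0.50 to 0.60.

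SNORD17 is a long box C/D RNA inside SNX5 and had the most reads of the set. RefSeq places it on GRCh38.p14 at chr20:17962710-17962946, on the minus strand in GENCODE and between exons of its host. Its GENCODE sequence is given with boxes C and D in capitals.
SNORD17: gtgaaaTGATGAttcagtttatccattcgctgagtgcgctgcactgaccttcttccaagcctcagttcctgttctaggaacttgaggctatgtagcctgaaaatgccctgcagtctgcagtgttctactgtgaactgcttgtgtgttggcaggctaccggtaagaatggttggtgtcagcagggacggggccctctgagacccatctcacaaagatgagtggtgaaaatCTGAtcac
It had 114, 120 and 79 reads in the controls and 91, 91 and 131 in MTR4 KD. The groups overlapped, at 1.61 ± 0.273 CPM against 1.66 ± 0.417 CPM (SD, n = 3). Its log2 fold change was 0.05, SE 0.23 (adjusted p = 0.934 by edgeR). SNX5 itself had -0.03 (adjusted p = 0.839 by edgeR).

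RPS12, a ribosomal protein gene, hosts 3 tested members, which are shown together because they come from 1 precursor. SNORD100 lies at chr6:132816802-132816877 and SNORD101 at chr6:132815307-132815379 on GRCh38.p14, all 3 on the plus strand and outside annotated exons. Boxes C and D are in capitals. SNORA33 ends directly in its ACA, which the search did not count, and is left in lower case.
SNORA33: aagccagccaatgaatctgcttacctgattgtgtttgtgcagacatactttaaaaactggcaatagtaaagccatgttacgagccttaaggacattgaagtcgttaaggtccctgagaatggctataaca
SNORD100: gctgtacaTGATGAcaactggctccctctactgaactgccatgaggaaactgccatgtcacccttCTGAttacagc
SNORD101: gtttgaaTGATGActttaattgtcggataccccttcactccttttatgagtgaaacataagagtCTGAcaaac
SNORA33, the third most abundant member, had 72, 96 and 72 reads in the controls and 49, 40 and 108 in MTR4 KD. MTR4 KD 1 and 2 were its lowest libraries and MTR4 KD 3 its highest. Its log2 fold change was -0.23, SE 0.39 (adjusted p = 0.809 by edgeR). SNORD100 had 23, 32 and 20 reads against 21, 22 and 32, and SNORD101 had 12, 21 and 7 against 14, 22 and 27. For both the groups overlapped. The summed level of the 3 was 1.74, 2.06 and 1.64 CPM in controls and 1.37, 1.26 and 2.72 CPM in MTR4 KD. RPS12 itself differed by 0.07 on the log2 scale between the groups (adjusted p = 0.842 by edgeR), and it was 0.39 higher in the libraries with fewer non-unique reads (adjusted p = 1.33e-05 by edgeR).

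The SNORD116 cluster is a tandem array of box C/D RNAs in the imprinted region of chromosome 15, expressed from the long noncoding host SNHG14. It gave 20 members, 7 of them tested, and 3 reference sequences are shown for how alike the copies are, with boxes C and D in capitals.
SNORD116-24: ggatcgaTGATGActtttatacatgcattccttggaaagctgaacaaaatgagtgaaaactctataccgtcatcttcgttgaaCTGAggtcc
SNORD116-7: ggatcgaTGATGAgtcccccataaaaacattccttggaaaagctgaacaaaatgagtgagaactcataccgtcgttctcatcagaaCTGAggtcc
SNORD116-1: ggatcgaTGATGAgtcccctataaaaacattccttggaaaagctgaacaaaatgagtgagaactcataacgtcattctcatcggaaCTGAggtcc
On GRCh38.p14 they lie at chr15:25094036-25094129, chr15:25067787-25067883 and chr15:25051476-25051572, on the plus strand in GENCODE. Over the 190 pairs of members the identity was 65.3% to 100%, with a median of 85.4%, so reads can be shared between copies. The summed level of the 20 members was 2.92, 2.97 and 1.96 CPM in the controls and 3.00, 2.64 and 3.77 CPM in MTR4 KD, and the groups overlapped. The tested copies ran from -0.38 to 0.88 on the log2 scale, with 4 above 0 and none past the test. SNORD116-24 had 39, 41 and 16 reads against 31, 43 and 36. SNORD116-7 had 19, 8 and 0 reads against 11, 10 and 26, and its interval of -1.36 to 3.04 was among the widest.

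Among the other abundant members the groups overlapped, with 1 exception. SNORD14A, a box C/D RNA in RPS13 needed for ribosomal RNA processing, had 28, 51 and 29 reads against 47, 38 and 41. The SNORD63 gene with most reads, in HSPA9, had 37, 49 and 32 against 45, 23 and 39. The SNORA11 gene with most reads had 23, 49 and 22 against 49, 25 and 30. SNORA73B, the U17b RNA that takes part in ribosomal RNA cleavage, lies in RCC1 and had 27, 48 and 26 reads against 20, 26 and 37. None of these 4 passed the test, with log2 fold changes from -0.22 to 0.28.

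SNORA71C, in the long noncoding host SNHG17, was the tested member whose MTR4 KD libraries all lay below the controls in CPM. It had 28, 43 and 26 reads in the controls and 23, 28 and 21 in MTR4 KD, and its log2 fold change was -0.38 (adjusted p = 0.524 by edgeR). Complete separation in this direction was found for 12.6% of all tested genes and for 1 of 34 members. In the opposite direction it was found for 12.1% of all tested genes and for 1 of 34 members. The smallest unadjusted p of the set was 0.105, for SNORD83A in RPL3, which had 21, 40 and 36 reads against 19, 20 and 23 (log2 fold change -0.60, adjusted p = 0.374 by edgeR).

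Among the less abundant named members, counts were mostly uneven within groups. SNORA5C and SNORA14A were named for their difference between the library batches, which cross the conditions. Unevenness within groups can therefore follow from that choice, and its relation to abundance was not tested. SNORA5C, in TBRG4, had 17, 12 and 14 reads against 15, 18 and 29, and SNORA14A, in POR, had 17, 18 and 12 against 8, 17 and 28. SCARNA5, a Cajal body RNA in ATG16L1, had 1, 0 and 0 reads against 1, 11 and 0. The 9 SCARNA members had 11 to 63 reads each, and their summed level was 0.503, 0.511 and 0.298 CPM in controls and 0.473, 0.749 and 0.669 CPM in MTR4 KD.

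The 91 members that the filter on low counts left out had at most 60 reads. In a fit of the 25086 genes with at least 10 reads, 0 of 125 members had an adjusted p under 0.05, beside 2.03% of genes. In that fit 1 member had an unadjusted p under 0.05, SCARNA6 in ATG16L1, with 2, 0 and 2 reads in the controls and 6, 8 and 10 in MTR4 KD (log2 fold change 2.48, adjusted p = 0.292 by edgeR). It was chosen for its p. The MTR4 KD libraries lay wholly above the controls for 6 of 125 members and wholly below for 3, beside 10.1% and 10.5% of the genes in that fit.

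With the library batch in the fit, 3649 genes passed, 20.2% of those tested, and still 0 of 34 members. The smallest adjusted p among them was 0.219, for SNORA5C (log2 fold change 0.77 in this fit). Over the 125 members the fit with batch also gave 0, beside 13.8% of genes. Each batch holds a single library of 1 condition, MTR4 KD 3 or control 2, so a difference within a batch cannot be told apart from that library. Between MTR4 KD 3 and controls 1 and 3, the median log2 difference of the tested members was 0.51, beside 0.0062 over all tested genes. Of the 34 members 26 were higher in MTR4 KD there, beside 51.1% of all tested genes. Between MTR4 KD 1 and 2 and control 2, the median was -0.26, beside -0.0024 over all tested genes. There 12 of 34 were higher, beside 49.6% of all tested genes. For tested genes with a mean count no higher than the highest member, the medians were 0.092 and -0.053, with 55.2% and 46.2% higher. The sign of this difference was opposite in the batches for 18 of 34 members, or 52.9%, beside 32.1% of all tested genes and 43.1% of tested genes with a mean count no higher than the highest member. No member passed the test of this difference, beside 0.974% of all tested genes, and 0 of 125 did in the fit of genes with at least 10 reads, beside 0.977% of them.

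**Figure D3:**
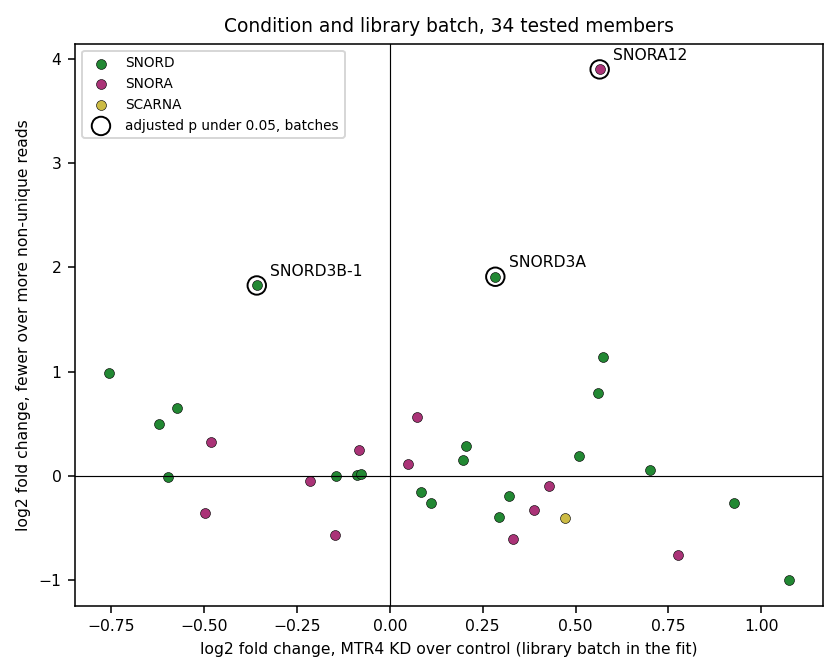
Log2 fold change of MTR4 KD over control (x) against the log2 fold change between library batches (y) from 1 fit, for the 34 tested members coloured by class. Circled members passed the test between batches, and SNORA12 at 3.90 and the SNORD3 genes at 1.83 and 1.91 stand apart on the y axis only.

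The summed level of all members was 18.0, 24.4 and 16.5 CPM in the controls and 22.4, 21.8 and 23.1 CPM in MTR4 KD. The mean was 19.6 ± 4.19 CPM against 22.4 ± 0.620 CPM (SD, n = 3), and the groups overlapped, since control 2 was the highest library. This sum differed by 0.42 on the log2 scale between MTR4 KD 3 and controls 1 and 3, and by -0.14 between MTR4 KD 1 and 2 and control 2. The SNORD members summed to 11.4 ± 2.89 CPM and 13.9 ± 0.915 CPM, and the SNORA members to 7.72 ± 1.38 CPM and 7.95 ± 1.37 CPM (SD, n = 3 in each case).

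Host genes were counted far more deeply than the RNAs inside them. In the annotation 112 members lay inside a gene on the same strand, with 79 different hosts, and 35 overlapped an exon of such a gene. Levels between genes were compared in CPM per kb of merged exon. For 109 members with a counted host the median level was 8.76% of the host's, with 15 members under 1% and 17 over 100%. The members over 100% included SNORD116 copies, whose host SNHG14 has a merged exon length of 122609 bases, and SNORD104 in the barely counted SNHG25. SNORA33, SNORD100 and SNORD101 stood at 0.718%, 0.420% and 0.298% of RPS12. SNORD17 stood at 67.1% of SNX5 and SNORA12 at 40.7% of CWF19L1.

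**Figure D4:**
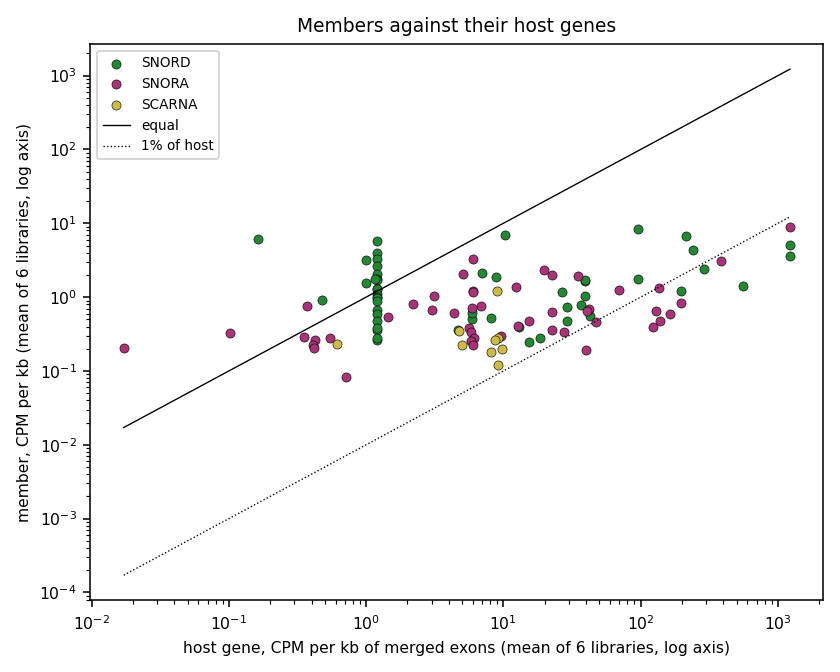
Mean level over the 6 libraries of each member (y) against that of its host gene (x), both in CPM per kb on log axes, coloured by class. The solid line marks equal levels and the dotted line 1% of the host; most members lie between the lines, and the vertical column of points is the SNORD116 cluster with its single host SNHG14.

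Members and hosts were also compared in their log2 fold change. Over the 29 pairs with both genes tested, the member minus host difference had a median of 0.07 and ran from -0.65 for SNORA14B in TOMM20 to 1.26 for SNORA12 in CWF19L1, whose reads followed the library batch. It was above 0 in 17 pairs and below 0 in 12. None of the hosts of a tested member passed the test. The host DANCR did, at 50.5 ± 3.83 CPM in controls and 70.2 ± 2.89 CPM in MTR4 KD (SD, n = 3; log2 fold change 0.47, adjusted p = 0.0173 by edgeR). DANCR was picked from the 79 hosts because it passed, and 3.6% of all tested genes did. It is a long noncoding RNA gene, and its member SNORA26 was too low to be tested.

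The proteins that build and trim these RNAs were described from 5 lists with 47 tested genes. The lists cover the box C/D core, the box H/ACA core, the assembly factors, Cajal body and cap factors, and the 3′ trimming and exosome factors. No gene of the 5 lists passed in the fit by condition alone. With batch in the fit 12 of 47 passed, or 25.5%, near the 20.2% of all genes. Of these 10 were lower in MTR4 KD (21.3% of the 47, beside 10.8% of all tested genes) and 2 higher (beside 9.43% of all tested genes). The genes are given as a description of the lists. Lower were the box C/D core genes FBL, the methyltransferase fibrillarin (-0.17, adjusted p = 0.0253 by edgeR), and SNU13 (-0.20, adjusted p = 0.0072 by edgeR). The assembly factors RUVBL1, RUVBL2 and PIH1D1 were lower by 0.27, 0.28 and 0.42 on that scale. Also lower were PHAX, an export adaptor, NOLC1 and TCOF1, nucleolar phosphoproteins, and the exosome subunits EXOSC2 and EXOSC8. Higher were ZCCHC8 (0.24) and NRDE2 (0.27), which encode binding partners of MTR4. The 4 genes of the box H/ACA core, DKC1, NHP2, NOP10 and GAR1, ran from -0.15 to 0.23 by condition alone, and none passed in either fit.

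Of 22 counted genes for other structured small RNAs, 7 were at 0 in every library and 2 were tested. RN7SK, the RNA that holds the elongation factor P-TEFb inactive, had 1785, 278 and 977 reads in the controls and 488, 599 and 2158 in MTR4 KD. Its batch difference was -2.27, with more reads where non-unique reads were more frequent, the opposite direction to the SNORD3 genes and SNORA12. By condition alone it differed by 0.09 (adjusted p = 0.964 by edgeR), and with batch in the fit by 0.83 (adjusted p = 0.00611 by edgeR). Of all tested genes 20.2% passed in the fit with batch, and 9.43% were higher. The other of the 2 tested genes differed by 0.42 by condition alone and passed in neither fit.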

How the data were processed

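RNA-seq of 3 control and 3 MTR4 KD samples was analysed from the raw counts of reads per gene that the authors deposited. The submitters' processing notes name HISAT2 2.1.0, HTSeq, DESeq2 and the build GRCh38, and the study's methods name GRCh38 for alignment. The counting mode, strand setting and RNA selection are not given in the sources used here. Rows that name no gene (non-unique, ambiguous, low quality and the like) were kept out of library sizes and tests. They made up 37.7% to 49.3% of the entries of a library.

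Ensembl IDs were matched to GENCODE v44 lifted to GRCh37 for symbols, hosts and transcript sequences, which covered 56959 of 60675 genes. GRCh38.p14 positions came from RefSeq by symbol and were found for 70 members. The files' build differs from that of the genome at hand, so no sequence was read by coordinates. A transcript counted as near-identical at 95% identity over 80% of its length (BLAST 2.17.0), which held for 22 members, 9 of them tested.

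The test was edgeR 4.0.16's quasi-likelihood test (R 4.3.3) with TMM factors on genes kept by filterByExpr (minimum count 10), with the condition alone as the main fit and Benjamini-Hochberg adjustment over all 18075 genes. Samples were grouped by their labels. The library batch, cut at a non-unique share of 30%, entered a second fit and an interaction fit. Alternatives were other scalings and filters, DESeq2 1.42.0, limma-voom (limma 3.58.1), a replicate block and leaving out each library. The fits by edgeR, limma-voom and DESeq2 were tested on simulated counts with known changes. Those counts held no difference between library batches, and the limit set on false calls was not applied to DESeq2. The simulation therefore does not show how the fits behave with such batches. The common biological coefficient of variation was 0.175, and 0.0573 with the batch in the fit. Levels are CPM on TMM-scaled library sizes, with SDs over 3 libraries. Log2 values within a library used a pseudocount of 0.5. Within each group, no library was a duplicate of another by a chi-square comparison of its counts.

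Named were MTR4, members past a test, the 10 with the highest mean CPM, reference members, the 3 with the largest batch difference in each direction, their hosts, and members at the edge of the rule. Other members named share a host with these or were chosen after their values were seen. The members and lists were chosen with earlier results of these data known. SNORA73A, SCARNA2 and SCARNA10 are not analysed here, and a result on 1 gene is not reported here.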

Additional observations from a re-analysis of the deposited data

Results flagged for a closer look

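For 3 tested members the effect of MTR4 KD differed between the library batches at an unadjusted p under 0.05, with opposite directions in the batches. They were chosen for that p, and the share of all tested genes at the same unadjusted threshold was not counted. None passed after adjustment over all 18075 genes by edgeR's quasi-likelihood test, and each batch holds a single library of 1 condition (MTR4 KD 3 or control 2), on which the direction within that batch rests. SNORA33 was 0.57 higher in MTR4 KD among libraries with more non-unique reads and differed by -0.93 among those with fewer. Its interaction was -1.50 on the log2 scale (adjusted p = 0.176 by edgeR). SNORD3A differed by -0.60 and 0.83 in the same order, with an interaction of 1.45 (adjusted p = 0.325 by edgeR). SNORD104 had 12, 38 and 27 reads in controls and 16, 30 and 45 in MTR4 KD, differed by 1.29 and -0.60, and had an interaction of -1.75 (adjusted p = 0.426 by edgeR).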

How the results depend on the processing

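The count of members past the test between MTR4 KD and control was 0 under every alternative run, which covered 4 to 125 members. DESeq2 gave an adjusted p for 19 of the 34. Without 1 library in turn it was also 0. The median log2 fold change of the tested members, 0.20, stayed above 0 and ran from 0.039 to 0.36 without 1 library. In 3 of those 6 runs it moved by more than 0.15, the SD of the medians of the MTR4 KD libraries. The members tested in those runs were 39 to 44. MTR4 remained lower, from -0.82 to -0.68. The members differing between batches were 3 to 4, with SNORA33 added without control 2. SNORD3B-1 by condition, 0.16, turned to -0.36 with the library batch as covariate and to -0.35 with that and the lower filter. By condition, SNORD3A (1.06, and 0.73 to 1.61 without 1 library) came to 0.28 and SNORA12 (1.21, and 0.66 to 4.54) to 0.56 with the batch as covariate, none past the test. Of the genes of the 5 protein lists, 0 passed by condition alone, 1 with no filter, 3 with DESeq2, 12 with the batch as covariate and 11 with the batch and the lower filter. By condition alone, members near 0 changed sign without 1 library, with ranges of -0.17 to 0.17 for SNORD17, -0.18 to 1.09 for SNORD3B-1, -0.81 to 0.056 for SNORA33, -0.30 to 0.18 for SNORD63, -0.049 to 0.47 for SNORD116-24, -0.13 to 0.57 for SNORA11, -0.51 to 0.011 for SNORA73B, -0.31 to 0.56 for SNORA14A, -0.13 to 0.60 for SNORD104 and -0.19 to 0.17 for SNORD100, none past the test. The replicate numbers were shared between the groups, and same-numbered libraries correlated at -0.22, 0.30 and 0.33. These correlations followed the library batch and not the number. Pairs within a batch correlated at 0.30 to 0.33 and pairs across batches at -0.47 to -0.20. Over all genes, 650 passed by condition alone, 1363 with DESeq2, 3649 with the batch as covariate and 137 to 803 without 1 library. With a replicate block 857 genes passed in place of 650, and 0 of 34 members. The median member minus host difference, 0.07, ran from -0.07 to 0.18 without 1 library. The summed level of the members, a log2 ratio of 0.19, ran from 0.08 to 0.38 without 1 library. Leaving aside the SNORD3 members and SNORA12, an alternative added after seeing the data, gave 0.13. The depth of these libraries limits all of this, since 103 of 125 members had fewer than 100 reads.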
